A study of Mus musculus with 2 samples.

Results

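The interferon-inducible GTPases described here are 8 genes of the immunity-related GTPase (IRG) and guanylate binding protein (GBP) families: Irgm1, Irgm2, Igtp, Iigp1, Gbp2, Gbp3, Gbp5 and Gbp6. They were taken by gene symbol from a table of 22216 gene rows, and each symbol matched 1 row. Mice of the genotype NOD.L7 were compared with mice of the genotype NOD.g7. NOD is an inbred strain of mouse that develops autoimmune diabetes, and the labels leave g7 and L7 unexplained and give no age, sex or treatment. Each genotype was 1 RNA sequencing library, prepared from 3 spleens pooled together, and the mapped sequence came to 12.1 Gb for NOD.L7 and 9.13 Gb for NOD.g7. With no replicates there is no p-value or standard error, and each difference below compares 2 libraries. In bulk tissue, fewer cells of a type and less RNA per cell cannot be told apart. Of the 6 spleen markers listed, 4 passed the filter described below, among them Cd3e, Spic and Cd163. The transcription factors Tlx1 and Nkx2-5, needed for the spleen to form in the embryo, did not pass: Tlx1 was at an RPKM of 0.0245 in NOD.L7 and 0.0216 in NOD.g7, and Nkx2-5 was listed at 0 in both.

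Both families are large GTP-binding proteins, and most of their genes are switched on by interferon gamma, many of them also by type I interferon. They defend cells from within: they gather on the membranes of vacuoles that hold parasites or bacteria and help to break them open. The IRGM proteins (Irgm1, Irgm2 and Igtp, which is also called Irgm3) sit on the cell's own membranes and hold the other IRG proteins inactive there, and those others, such as Iigp1, are the effectors that attack the vacuole. The GBP proteins bind pathogen membranes and help to set off inflammasomes, the complexes that activate inflammatory caspases. Interferon gamma signals reach promoters at GAS elements, while Irf1 and the type I interferon complex that holds Irf9 bind ISRE elements.

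The promoters are shown first because genes that respond to interferons are known to be controlled through ISRE and GAS elements. Of the 8 members, 6 matched a promoter window in RefSeq (GRCm38.p6, 250 bases before to 50 bases after the annotated start), and Iigp1 and Gbp6 were not matched. The lines below give the 100 bases directly before the start, read on the gene's own strand. Capitals mark the core of an ISRE, taken as GAAA repeated after any 2 bases (or TTTC likewise, its other strand), and TTCNNNGAA, the core of a GAS, which reads the same on both strands. The windows lie at chr11:58199456-58199555 (plus strand) for Igtp, chr11:58214877-58214976 (plus) for Irgm2, chr11:48871421-48871520 (minus) for Irgm1, chr3:142620563-142620662 (plus) for Gbp2, chr3:142559944-142560043 (plus) for Gbp3 and chr3:142496834-142496933 (plus) for Gbp5.
Igtp: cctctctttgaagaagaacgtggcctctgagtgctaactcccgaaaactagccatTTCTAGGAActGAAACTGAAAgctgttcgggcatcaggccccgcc
Irgm2: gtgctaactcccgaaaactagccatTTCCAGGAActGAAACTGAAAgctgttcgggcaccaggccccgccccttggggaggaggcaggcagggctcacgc
Irgm1: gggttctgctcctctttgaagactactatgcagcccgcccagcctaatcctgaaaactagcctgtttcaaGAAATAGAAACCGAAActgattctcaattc
Gbp2: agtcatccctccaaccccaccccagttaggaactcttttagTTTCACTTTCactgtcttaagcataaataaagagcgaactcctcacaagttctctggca
Gbp3: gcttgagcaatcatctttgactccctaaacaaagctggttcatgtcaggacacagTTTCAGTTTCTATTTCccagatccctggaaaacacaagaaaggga
Gbp5: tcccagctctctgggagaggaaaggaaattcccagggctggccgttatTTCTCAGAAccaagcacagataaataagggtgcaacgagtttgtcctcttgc

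All 6 matched members held the ISRE core in the 300-base window, against 3.99% of the 27025 genes with a window. In Gbp5 that match lay 165 to 156 bases before the start, outside the stretch printed. Matches overlapped each other in Irgm1 and in Gbp3, and a second annotated start of Gbp3 had no match. TTCNNNGAA was found in 3 members, Igtp, Irgm2 and Gbp5, against 9.55% of all genes, and both motifs together were found in 0.540% of all genes. In Igtp and Irgm2, which are neighbours on chromosome 11, the GAS core stood directly before the ISRE core, and 20 of the 21 bases from the first base of one to the last base of the other were identical. With these motifs laid over each other the windows shared 184 of 270 bases, or 68.1%. Of the other family genes, 9 of 18 matched a window and 5 held the ISRE core, namely Tgtp2, Gm12250, 9930111J21Rik1, Gbp1 and Gbp7. TTCNNNGAA was found in 3 of these other genes, Tgtp2, Gm12250 and Gbp7, so the 3 held both motifs. A motif match describes these letters and is not a measured binding site, and the windows are those of the reference strain, not of the mice sequenced.

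**Figure D1:**
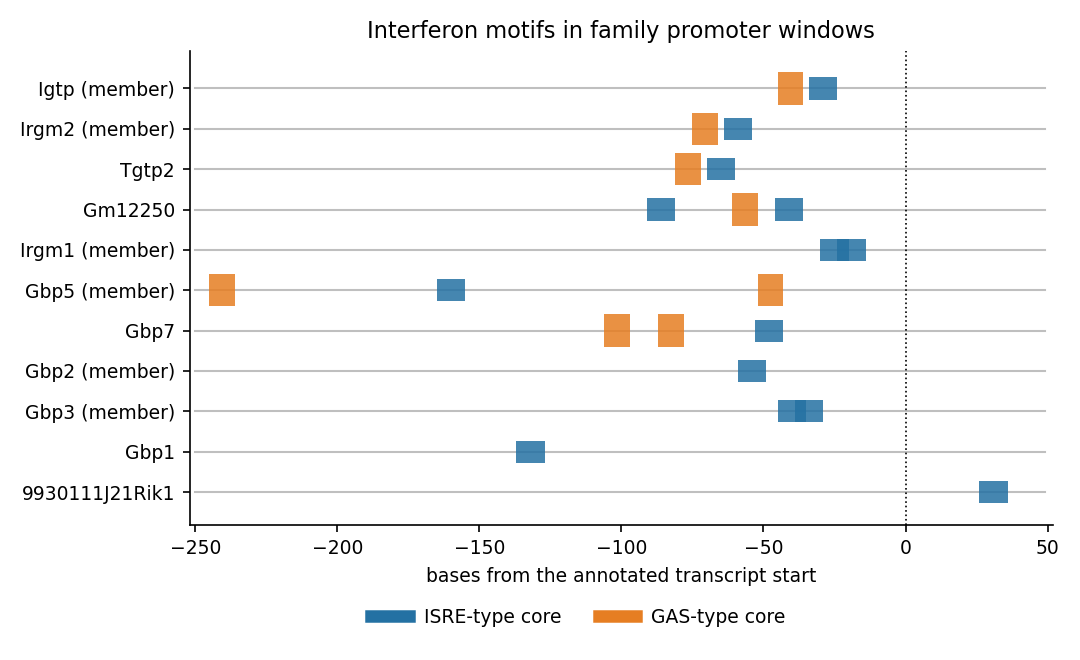
Positions of ISRE-type cores (blue, in either orientation) and GAS-type cores (orange, TTCNNNGAA) in the RefSeq windows of the 11 family genes with a match, by distance in bases from the annotated transcript start (dotted line). Igtp, Irgm2 and Tgtp2 carry the GAS core directly before the ISRE core, and in Gbp1 the match lies 137 to 128 bases before the start.

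The members' levels are given in RPKM, which divides the sequence mapped to a gene by its length and by the size of the library, as the authors deposited them. Ratios are log2((NOD.L7 RPKM + 1)/(NOD.g7 RPKM + 1)), so a positive value is higher in NOD.L7, and folds are plain ratios of RPKM. The 95% counting interval given with a fold covers counting error alone and leaves out variation between mice. A gene was kept if its RPKM was 1 or more in at least 1 library, a filter that 11141 genes and all 8 members passed, and all 8 were above 5 in both libraries. None passed the size rule, an absolute log2 ratio of at least 1, against 0.709% of the kept genes. At the smaller threshold of 0.25, a fold of about 1.19, 3 of 8 members were higher in NOD.L7 (Igtp, Irgm2 and Irgm1), against 8.82% of kept genes in that direction, and 1 was lower (Gbp2), against 4.74%. The median over the members was 0.17, and over all kept genes it was 0.02.

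The 4 IRG members were all higher in NOD.L7, where 56.2% of all kept genes were higher, and the 4 GBP members went both ways. Summed over the IRG members the RPKM was 152 in NOD.L7 and 118 in NOD.g7, 1.29-fold higher. Summed over the GBP members it was 63.2 in NOD.L7 and 68.7 in NOD.g7, a fold of 0.921. The ratio of the IRG sum to the GBP sum was thus 2.41 in NOD.L7 and 1.72 in NOD.g7. The median log2 ratio was 0.34 for the IRG members and -0.03 for the GBP members. This contrast was that of the members alone. Among kept family genes outside the members the median was 0.03 for 7 IRG genes and 0.19 for 6 GBP genes. Over all kept genes of each family it was 0.13 for IRG genes and 0.15 for GBP genes.

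**Figure D2:**
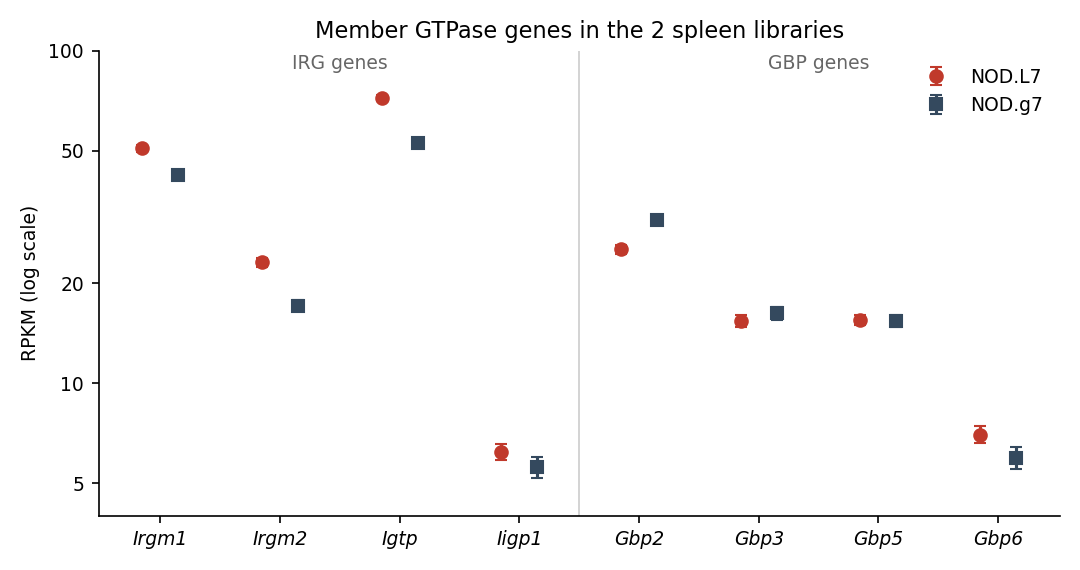
RPKM (log scale) of the 8 member genes in the NOD.L7 library (red circles) and the NOD.g7 library (dark squares), with 95% Poisson intervals of counting error only. The 4 IRG genes lie higher in NOD.L7, Gbp2 lies lower at 25.3 against 31.1, and Iigp1, Gbp3 and Gbp5 have overlapping intervals.

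The 3 IRGM regulators had the members' highest ratios. Igtp (chromosome 11, 58013058 to 58021094 in mm9), which protects the cell's own membranes from the effector GTPases, was at an RPKM of 72.2 in NOD.L7 and 52.9 in NOD.g7. That is a 1.37-fold difference (counting interval 1.32 to 1.41) and a log2 ratio of 0.44, with 3.15% of kept genes having a higher ratio. Irgm2 (chromosome 11, 58028479 to 58036285), a regulator found at the Golgi, was at 23.1 in NOD.L7 and 17.1 in NOD.g7, 1.35-fold higher (interval 1.29 to 1.41). Irgm1 (chromosome 11, 48678751 to 48684848), a regulator whose loss in mice impairs defence against mycobacteria and autophagy, was at 50.9 in NOD.L7 and 42.4 in NOD.g7, 1.20-fold higher (interval 1.16 to 1.25). Its log2 ratio of 0.26 was close to the threshold of 0.25 and fell below it, to 0.24, when the median ratio of all kept genes was centred on 0 or a TMM factor was applied. Igtp and Irgm2 kept nearly the same proportion to each other, 3.13 to 1 in NOD.L7 and 3.09 to 1 in NOD.g7. In GENCODE M21 the gene models of Igtp and Irgm2 overlap on the same strand, although their rows in the deposited table do not, so reads of one may have been counted to the other.

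Iigp1 (chromosome 18, 60535683 to 60552283), an effector that coats and disrupts parasite vacuoles, was the lowest of the members. It stood at 6.22 in NOD.L7 and 5.59 in NOD.g7, a fold of 1.11 (interval 1.02 to 1.22) and a log2 ratio of 0.13. Effector IRG genes outside the members include Gm12250 (Irgb10), Tgtp2 (Irgb6) and Ifi47 (Irgd). Gm12250, which helps to break open bacteria in the cytosol, was at 13.8 in NOD.L7 and 9.56 in NOD.g7, 1.45-fold higher (interval 1.30 to 1.60). Tgtp2, an early coat protein of parasite vacuoles, was at 13.2 in NOD.L7 and 11.1 in NOD.g7, and Ifi47 was at 73.0 in NOD.L7 and 69.2 in NOD.g7. Summed over the 3 regulators the RPKM was 146 in NOD.L7 and 112 in NOD.g7, and over these 4 effectors it was 106 in NOD.L7 and 95.4 in NOD.g7. Of the effector sum Ifi47 made up 73.0 in NOD.L7 and 69.2 in NOD.g7. The GENCODE model of Ifi47 overlaps that of Olfr56 on the same strand. The ratio of the regulator sum to the effector sum was 1.38 in NOD.L7 and 1.18 in NOD.g7. With all other IRG genes of the table except the chromosome 7 genes Irgc1 and Irgq in the second sum, 9930111J21Rik1 and Gm5431 among them, the ratio was 1.07 in NOD.L7 and 0.890 in NOD.g7. Tgtp2 has a near-identical neighbour, Tgtp1, that has no row of its own in the table, so its level is uncertain.

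Gbp2 (chromosome 3, 142283627 to 142300972), which is recruited to parasite vacuoles and to bacteria that have reached the cytosol, was the 1 member lower in NOD.L7 by the 0.25 threshold. It was at 25.3 in NOD.L7 and 31.1 in NOD.g7, a fold of 0.815 (interval 0.778 to 0.853) and a log2 ratio of -0.29, with 3.66% of kept genes having a lower ratio. Gbp3 (chromosome 3, 142223016 to 142236176) was at 15.4 in NOD.L7 and 16.3 in NOD.g7, a fold of 0.947 whose interval, 0.893 to 1.01, holds 1. Gbp5 (chromosome 3, 142159898 to 142185308), which is known to promote inflammasome assembly, was at 15.5 in NOD.L7 and 15.4 in NOD.g7, a fold of 1.01 (interval 0.953 to 1.07). Gbp6 (chromosome 5, 105699721 to 105722718) was at 7.01 in NOD.L7 and 5.97 in NOD.g7, a fold of 1.17 (interval 1.07 to 1.29). Its GENCODE model overlaps that of Gm43302 on the same strand, as does the model of Gbp10. Closely related copies lie beside each GBP gene, and the handling of reads with several matches is not given in the sources used here, so levels within the family are uncertain.

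By the counting intervals, 5 members lay above 1 (the 4 IRG members and Gbp6), 1 lay below it (Gbp2) and the others, Gbp3 and Gbp5, held 1. Such intervals are narrow at this depth: they lay above 1 for 28.9% and below 1 for 19.3% of 10077 kept genes with a GENCODE transcript length. An interval that leaves out 1 is therefore common between these libraries.

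The order of the levels was much alike in both libraries. In NOD.L7 it ran Igtp, Irgm1, Gbp2, Irgm2, Gbp5, Gbp3, Gbp6 and Iigp1, and the level intervals of Gbp5 (14.9 to 16.1) and Gbp3 (14.8 to 16.0) overlapped. In NOD.g7 Gbp3 stood before Gbp5, again with overlapping intervals. Irgm2 and Gbp3 (16.5 to 17.8 and 15.5 to 17.0 in NOD.g7) and Gbp6 and Iigp1 (5.54 to 6.43 and 5.21 to 5.99 in NOD.g7) overlapped in NOD.g7 but not in NOD.L7. Gbp2 stood above Irgm2 in both, by 25.3 to 23.1 in NOD.L7 and by 31.1 to 17.1 in NOD.g7. Igtp was above 93.9% of kept genes by its RPKM in NOD.L7 and above 90.3% in NOD.g7. Of the summed RPKM of all 26 IRG and GBP genes in the table, Igtp made up 15.1% in NOD.L7 and 12.2% in NOD.g7, while Gbp2 made up 5.30% in NOD.L7 and 7.15% in NOD.g7.

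Of the 18 IRG and GBP genes outside the members, 13 passed the filter. Of these 13, 9 were higher and 4 lower, where 56.2% of all kept genes were higher. The median log2 ratio of the 13 was 0.12. At the 0.25 threshold 2 of the 13 were higher, Gm12250 and Gbp10, against 8.82% of kept genes. In the other direction 1 was lower, Irgc1, against 4.74%. Gbp10 passed the filter through NOD.L7 alone, at 1.39 in NOD.L7 and 0.653 in NOD.g7, a fold of 2.12 (interval 1.70 to 2.69). Irgc1, an IRG gene of chromosome 7, was at 8.19 in NOD.L7 and 10.2 in NOD.g7, and its chromosome 7 relative Irgq was at 10.6 in NOD.L7 and 10.4 in NOD.g7. Irgc1 and Irgq are counted here by family membership, not by a response to interferon. Among the GBP genes of chromosome 3, Gbp1 (now named Gbp2b) was at 5.92 in NOD.L7 and 4.89 in NOD.g7, and Gbp7 was at 19.98 in NOD.L7 and 18.3 in NOD.g7. On chromosome 5, Gbp4 was at 32.2 in NOD.L7 and 27.8 in NOD.g7, and Gbp8 was at 21.6 in NOD.L7 and 19.1 in NOD.g7. Gbp9 was lower, at 32.1 in NOD.L7 and 35.7 in NOD.g7, and the GENCODE models of Gbp4, Gbp8 and Gbp9 overlap on the same strand. The 9930111J21Rik1 gene was at 27.9 in NOD.L7 and 28.2 in NOD.g7, and Gm5431 was at 1.67 in NOD.L7 and 1.98 in NOD.g7. The 5 genes that did not pass the filter, 9930111J21Rik2, F830016B08Rik, Gm4951, Gm4841 and Gbp11, were all under an RPKM of 1 in both libraries, the highest being Gbp11 at 0.407 in NOD.L7 and 0.412 in NOD.g7.

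**Figure D3:**
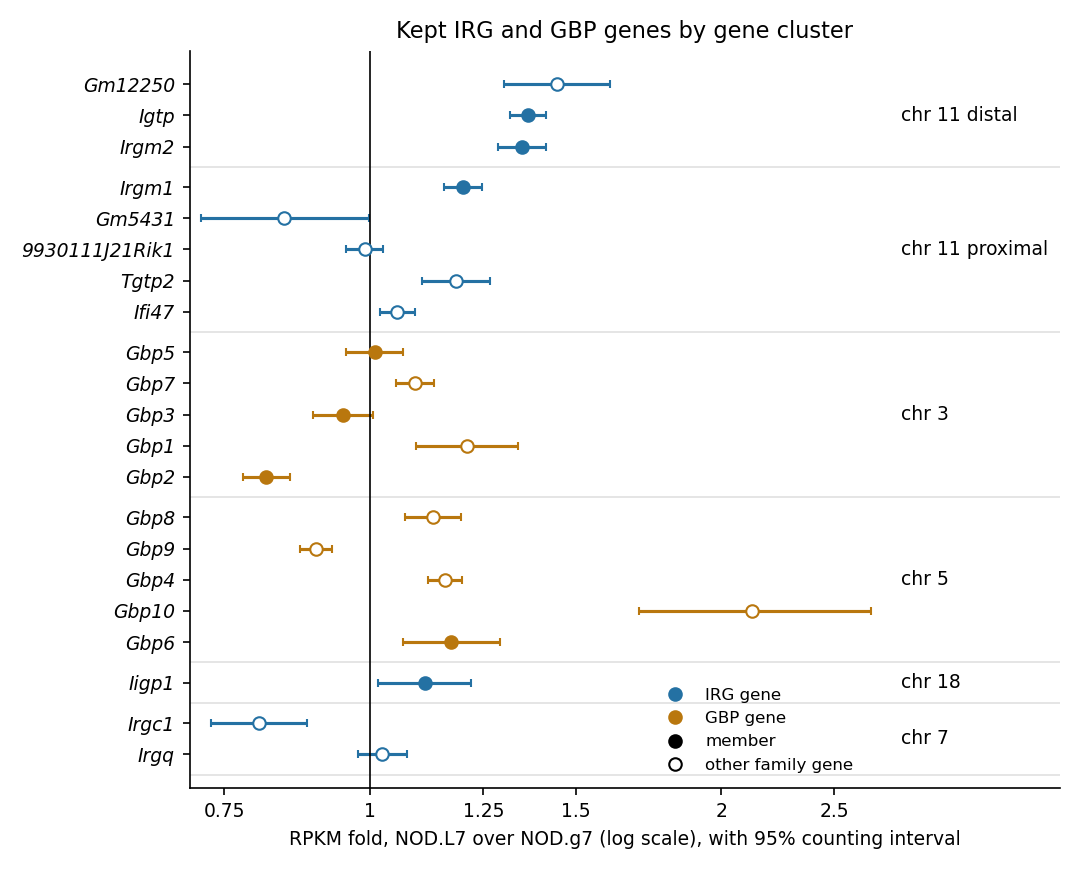
Fold of RPKM, NOD.L7 over NOD.g7 (log scale), with 95% counting intervals, for the 21 IRG (blue) and GBP (orange) genes that passed the filter, grouped by gene cluster in chromosomal order, with members as filled circles. The 3 genes of the more distal chromosome 11 cluster lie between 1.35 and 1.45, while the chromosome 3 cluster runs from 0.815 for Gbp2 to 1.21 for its neighbour Gbp1.

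The genes of a cluster did not all shift alike. In the more distal of the chromosome 11 clusters, Gm12250, Igtp and Irgm2 follow one another within 38.9 kb, with gaps of 9.36 and 7.39 kb. Their folds were 1.45, 1.37 and 1.35. Their log2 ratios ran from 0.41 for Irgm2 to 0.49 for Gm12250. The 3 nearest kept genes on each side that are not of the family had log2 ratios from -0.20 for Zfp692, 84.3 kb after Irgm2, to 0.21 for Mrpl22, 4.26 kb before Gm12250. Mrpl22 was at 15.4 in NOD.L7 and 13.1 in NOD.g7. In the more proximal cluster of chromosome 11 the folds were 1.20 for Irgm1, 1.18 for Tgtp2, 1.05 for Ifi47, 0.989 for 9930111J21Rik1 and 0.843 for Gm5431. On chromosome 3 the neighbours Gbp1 and Gbp2 lie 1.49 kb apart, and their folds were 1.21 (interval 1.09 to 1.34) and 0.815. Folds of neighbouring copies may not be independent, since the handling of reads that match several of them is not given. The gene models of Igtp and Irgm2 also overlap. The median log2 ratio was 0.24 over the 8 kept family genes of chromosome 11, 0.01 over 5 of chromosome 3 and 0.20 over 5 of chromosome 5.

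Upstream, the interferon gamma receptor chains had folds of 1.09 for Ifngr1 (interval 1.06 to 1.12) and 1.07 for Ifngr2 (interval 1.04 to 1.11). The difference in the ligand was not resolved at this depth. Ifng, the gene of the ligand, was near the filter at 1.32 in NOD.L7 and 1.06 in NOD.g7, a fold of 1.24 whose interval (0.879 to 1.73) holds 1. The receptor chains Ifngr1 and Ifngr2 were at 89.5 and 43.8 in NOD.L7, against 82.1 and 40.8 in NOD.g7. The receptor kinases Jak1 and Jak2 were at 197 and 39.5 in NOD.L7, against 207 and 37.6 in NOD.g7. The transcription factor Irf1 was at 77.7 in NOD.L7 and 64.4 in NOD.g7, 1.21-fold higher. Irf8, a factor of myeloid and B cells, was at 118 in NOD.L7 and 129 in NOD.g7. The inhibitors Socs1 and Socs3, which shut off cytokine receptor signals, were at 12.9 and 41.1 in NOD.L7, against 9.13 and 25.9 in NOD.g7, folds of 1.41 and 1.59. Of the 13 genes of this list, 3 were higher by the 0.25 threshold (Socs3, Socs1 and Irf1), none was lower, and the median log2 ratio was 0.10. With the TMM factor 2 passed, Irf1 falling below the threshold.

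Other genes induced by interferon gamma were on balance close to equal in both libraries. Of 20 kept genes of that list, NOD.L7 had 7 higher and 13 lower, the median log2 ratio was -0.04, and at the 0.25 threshold 2 were higher and 1 lower. With the filter at RPKM 5 the number past that threshold was 1 in place of 3. The 3 were Fcgr1, a high-affinity IgG receptor of monocytes, at 3.87 in NOD.L7 and 2.37 in NOD.g7, Cxcl10, a T cell chemokine, at 1.73 in NOD.L7 and 1.24 in NOD.g7, and Ciita, the master regulator of MHC class II genes, at 62.7 in NOD.L7 and 78.3 in NOD.g7. Serpina3g, a protease inhibitor, was at 31.5 in NOD.L7 and 27.2 in NOD.g7. Cxcl9, another chemokine of this response, was at 2.05 in NOD.L7 and 1.90 in NOD.g7, and Tap1, the peptide transporter of MHC class I presentation, was at 70.7 in NOD.L7 and 71.7 in NOD.g7.

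Genes of the type I interferon response were mostly lower in NOD.L7. Of 25 kept genes of that response, NOD.L7 had 4 higher and 21 lower, the median log2 ratio was -0.20, and 10 were lower by the 0.25 threshold against 1 higher. With the filter at RPKM 5 the number past that threshold, in both directions together, was 5 in place of 11. The 1 higher was Zbp1, a nucleic acid sensor named here after its values were seen, at 34.5 in NOD.L7 and 26.5 in NOD.g7. The antiviral gene Rsad2 was at 2.57 in NOD.L7 and 6.71 in NOD.g7 and was the 1 gene of the list past the size rule. Oas1a, Oas3 and Oasl2, of the oligoadenylate synthetase family, were at 0.988, 2.05 and 2.79 in NOD.L7, against 2.60, 3.96 and 4.86 in NOD.g7, and Oas1a passed the filter through NOD.g7 alone. Of the 8 genes of the receptor and signalling list, Usp18, an inhibitor of the type I receptor, was lower by the 0.25 threshold at 3.94 in NOD.L7 and 6.04 in NOD.g7, and none was higher. Irf9, Stat2 and Irf3 were at 45.7, 32.3 and 54.0 in NOD.L7, against 41.0, 31.0 and 52.1 in NOD.g7.

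The genes listed for autophagy conjugation, a process that marks vacuoles for the GTPases, had a median log2 ratio of 0.01. Of the 11, Atg3 alone passed the 0.25 threshold, at 27.6 in NOD.L7 and 22.8 in NOD.g7, and it did not pass after centring or with the TMM factor. Map1lc3a, Atg5 and Gabarapl2 were at 4.202, 14.5 and 18.8 in NOD.L7, against 3.67, 13.5 and 19.7 in NOD.g7. The inflammasome genes differed more, in both directions: of 9, 3 reached an absolute log2 ratio of 1, of which 1 was higher and 2 were lower in NOD.L7. Casp4 and Casp1, the inflammatory caspases, were at 4.04 and 9.75 in NOD.L7, against 13.2 and 26.9 in NOD.g7, and Il1b was at 77.9 in NOD.L7 and 29.4 in NOD.g7. Nlrp3, an inflammasome sensor, was at 6.66 in NOD.L7 and 4.197 in NOD.g7.

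**Figure D4:**
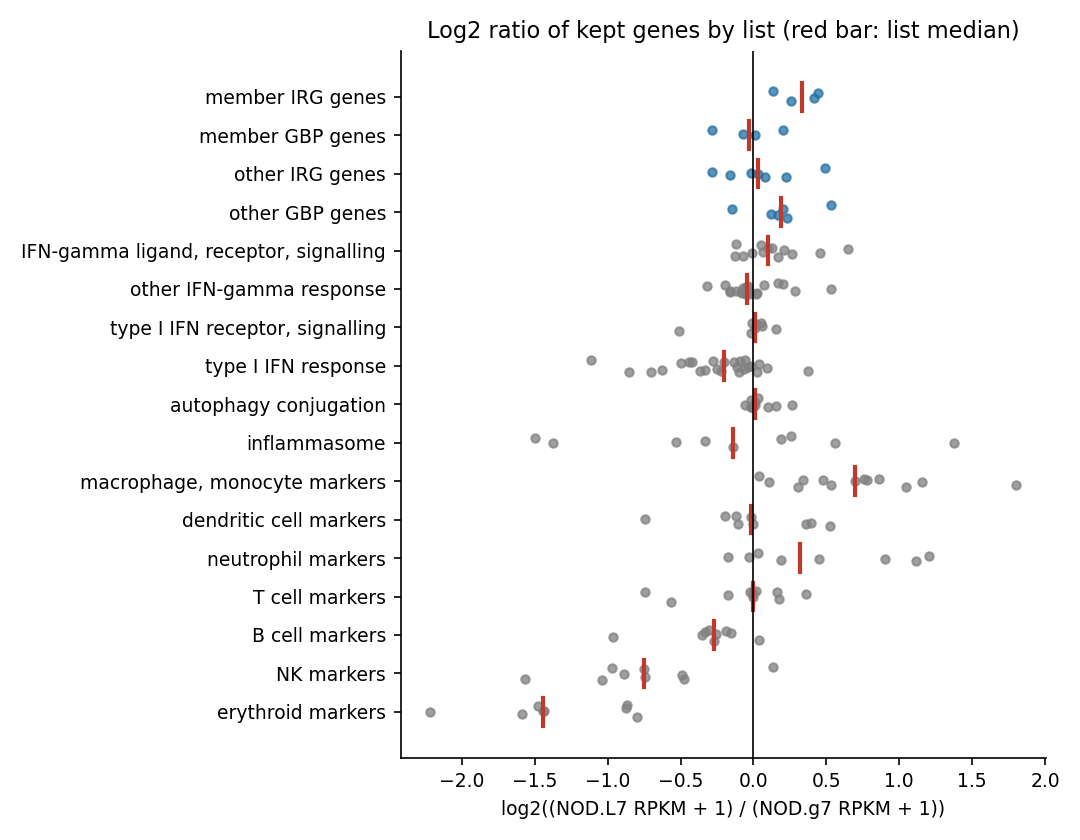
Log2 ratios (NOD.L7 over NOD.g7, pseudocount 1) of the kept genes of each list, 1 point per gene, with the list median as a red bar. The member IRG genes have a median of 0.34 and the member GBP genes -0.03, while the other IRG and GBP genes have 0.03 and 0.19. The median is -0.20 for type I interferon response genes, 0.70 for macrophage and monocyte markers and -0.75 for NK markers.

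Markers of the spleen's cell types, some of which make or respond to interferon, differed between the same libraries. All 13 macrophage and monocyte markers were higher in NOD.L7, 11 of them by the 0.25 threshold, with a summed RPKM of 1191 in NOD.L7 and 952 in NOD.g7. Of 9 NK markers 8 were lower, with a sum of 135 in NOD.L7 and 264 in NOD.g7. B cell markers were lower in 8 of 9, with a sum of 2250 in NOD.L7 and 2763 in NOD.g7. Of 10 T cell markers 4 were higher and 6 lower, with a median log2 ratio of -0.01. Their sums were 1131 in NOD.L7 and 1157 in NOD.g7. By the 0.25 threshold 1 was higher, Cd4, at 136 in NOD.L7 and 106 in NOD.g7. The 2 lower were Cd8a and Cd8b1, at 31.7 and 54.9 in NOD.L7, against 53.7 and 81.8 in NOD.g7. Neutrophil markers were higher in 6 of 8, with sums of 1102 in NOD.L7 and 844 in NOD.g7. Dendritic cell markers were higher in 3 of 9, with 251 in NOD.L7 and 257 in NOD.g7. By the 0.25 threshold 3 dendritic cell markers were higher and 1 was lower. Most of the dendritic cell sums came from Irf8, at 118 in NOD.L7 and 129 in NOD.g7, and Bst2, at 60.2 and 60.8. All 8 erythroid markers were lower, with 43.6 in NOD.L7 and 110 in NOD.g7. Of 8 endothelial and stromal markers 3 passed the filter, and the sums were 75.4 in NOD.L7 and 76.4 in NOD.g7. No marker of these lists was at 0 in either library. Their part in the values of the GTPase genes was not tested.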

How the data were processed

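Spleen RNA of 2 genotypes was sequenced, 1 library each from 3 pooled mice. The authors deposited 1 table with an RPKM value per gene and library (mapped sequence divided by gene length and library size). Per the submitters' processing notes, CASAVA 1.8.2 and SAMtools 0.1.18 are listed along with mm9, with no role given; the gene models, strand setting and counting of multiply matching reads are not given in the labels. The column NOD.LC7 was taken as NOD.L7 and the column NOD as NOD.g7, since the labels name no other groups. Member coordinates are the table's, in mm9, while promoters and gene models come from GRCm38 references.

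Depth was read from the steps of low RPKM values of single-exon genes shorter than 2500 bases. RPKM times length was a whole multiple of 1 step, within 0.15, for 98.3% of 119 values in NOD.L7 and 98.1% of 105 in NOD.g7. The steps correspond to 12.1 Gb of mapped sequence in NOD.L7 and 9.13 Gb in NOD.g7. These are covered bases, not reads, so no count model was used. Fragments were approximated from RPKM, the longest GENCODE M21 transcript and an assumed 200 bases per fragment, a choice made after seeing the data; fold intervals are exact Clopper-Pearson and level intervals exact Poisson, at 95%, for counting error only. Calculations used Python 3.11.15, numpy 2.4.6, scipy 1.17.1 and pandas 2.3.3, and were tested on simulated data.

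Genes at or above 1 RPKM in one library or both were kept. The alternatives varied the pseudocount (0.1 or 0.5), the filter (none, or 5) and the scaling (median centring, or a TMM factor). The members and lists were chosen with earlier results of these data known. Named genes were the members, all other IRG and GBP genes, the 4 genes furthest from 0 in each pathway list and 12 genes by name; cell type markers are given as sums and counts. The symbol AI747448 stood on the IRG list but is a synonym of Clca4b in RefSeq, so it was left out of the family. Some genes that this rule names are left unreported, though the list counts and sums include them.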

Additional observations from a re-analysis of the deposited data

How the results depend on the processing

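No paired analysis was possible because there was only 1 library on each side, and for the same reason no replicate could be left out. Under all 6 alternatives of pseudocount, filter and scaling, the log2 ratio of each of the 8 members stayed within its counting interval, and none passed the size rule. After centring and with the TMM factor, 2 members in place of 3 were higher by the 0.25 threshold, Irgm1 being at 0.24 under both, and Gbp5 changed sign around 0, from 0.01 as deposited to -0.00482 and -0.00971. The number of all genes past the size rule was 166, 91 of them higher, at the pseudocount 0.1 and 124, 67 of them higher, at 0.5, against 79 (43 higher). A filter at RPKM 5 tests fewer genes and left 52 past the size rule and 808 (522 higher) past the 0.25 threshold, against 1511 (983 higher). Of results for lists, 263 stayed within 0.1 of the main median or within 1.5 times the main count, and 13 moved further, among them the type I interferon response genes past the 0.25 threshold, 5 in place of 11 with the filter at RPKM 5. A wider choice of effector IRG genes, made after seeing the data, lowered the ratio of the regulator sum to the effector sum to 1.07 in NOD.L7 and 0.890 in NOD.g7. The first choice of regulators and effectors was not set in advance either. Depth limits genes near the filter, such as Ifng, whose interval of the fold was 0.879 to 1.73.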
